A study of Homo sapiens with 6 samples.

Results

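The miR-106b~25 cluster is a group of 3 microRNA (miRNA) hairpins, MIR106B, MIR93 and MIR25, that are cut from an intron of the gene MCM7. Its members were taken by name from the deposited values, as every row for an arm of miR-106b, miR-93 or miR-25. This gave 6 mature miRNAs of the 413 listed, namely hsa-miR-106b-5p, hsa-miR-106b-3p, hsa-miR-93-5p, hsa-miR-93-3p, hsa-miR-25-5p and hsa-miR-25-3p, or both arms of each hairpin. Small RNA was sequenced from cultured MDA-MB-231 cells, a line long established from a human breast cancer that lacks hormone receptors and HER2 amplification, in 3 libraries with vehicle and 3 with Withaferin A (WA), a steroidal lactone of the plant Withania somnifera, at 2 µM for 24 h. The methods of the study name DMSO as the vehicle, while the sample labels call the control cells untreated. All samples are of the same cell line and differ in the labels by WA alone. The values are reads per mature miRNA divided by a size factor per library, and are called normalized values here. The paper counts 413 miRNAs as found in both groups, so miRNAs seen in a single group alone are not covered.

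A miRNA hairpin is cut by Drosha and Dicer into a duplex, of which 1 arm is usually kept in an Argonaute protein and the other is lost. The kept arm finds messenger RNAs by its seed, bases 2 to 8 from the 5′ end, and miRNAs with the same seed share many targets. The host gene MCM7 codes for a subunit of the helicase that opens DNA for replication, and both it and the cluster are known to be driven by E2F factors. The cluster is regarded as oncogenic in many tumours, and reported targets of its miRNAs include the cell cycle inhibitor CDKN1A and the pro-apoptotic gene BCL2L11. No messenger RNA was measured in these libraries.

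The mature sequences are shown because the seed decides which members act alike and which paralogs they resemble. RefSeq gives them for all 6 members on the minus strand of chromosome 7 in GRCh38.p14, and the seed is in capitals.
miR-106b-5p, chr7:100094043-100094063: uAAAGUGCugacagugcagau
miR-93-5p, chr7:100093815-100093837: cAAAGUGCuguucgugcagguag
miR-25-3p, chr7:100093571-100093592: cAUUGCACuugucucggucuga
miR-106b-3p, chr7:100094002-100094023: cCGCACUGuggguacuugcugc
miR-93-3p, chr7:100093777-100093798: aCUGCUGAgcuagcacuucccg
miR-25-5p, chr7:100093610-100093630: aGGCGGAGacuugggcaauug
miR-106b-5p and miR-93-5p share the seed AAAGUGC, so 2 hairpins of the cluster carry the same seed on their 5p arm. miR-25-3p carries the seed AUUGCAC. The other 3 arms have a seed that no other RefSeq human mature miRNA in the table used here carries.

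Outside the cluster, 6 miRNAs of the 413 carry one of these seeds. They are shown since a read of a member could most easily be taken for one of them.
miR-17-5p: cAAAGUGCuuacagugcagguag
miR-20a-5p: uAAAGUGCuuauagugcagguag
miR-106a-5p: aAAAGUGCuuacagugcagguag
miR-92a-3p: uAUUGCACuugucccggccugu
miR-92b-3p: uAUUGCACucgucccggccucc
miR-32-5p: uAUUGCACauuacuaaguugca
miR-93-5p lies 3 single-base changes, insertions or deletions from miR-17-5p and 4 from both miR-20a-5p and miR-106a-5p. miR-106b-5p lies 5 from each of these 3. miR-25-3p lies 4 from miR-92a-3p, 6 from miR-92b-3p and 8 from miR-32-5p. The remaining arms lie at least 7 from any other listed miRNA with a RefSeq sequence. How the authors assigned reads that fit several of these miRNAs is not given in the sources used here, so the split between close relatives is uncertain.

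In GRCh38 with the GENCODE release 44 annotation, MCM7 (ENSG00000166508) runs from 100092233 to 100101940 on the minus strand of chromosome 7. MIR106B (ENSG00000208036) lies at 100093993 to 100094074, MIR93 (ENSG00000207757) at 100093768 to 100093847 and MIR25 (ENSG00000207547) at 100093560 to 100093643. All 3 are inside intron 13 of the 15-exon reference transcript ENST00000303887, an intron of 771 bases. They are in the order MIR106B, MIR93, MIR25 along the transcript, with gaps of 145 and 124 bases, and take up 515 bases from first to last. Of the 13 annotated MCM7 transcripts, 9 span the hairpins. None of these 9 has an exon over MIR106B or MIR25, and 1, annotated for nonsense-mediated decay, has an exon over MIR93.

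**Figure D1:**
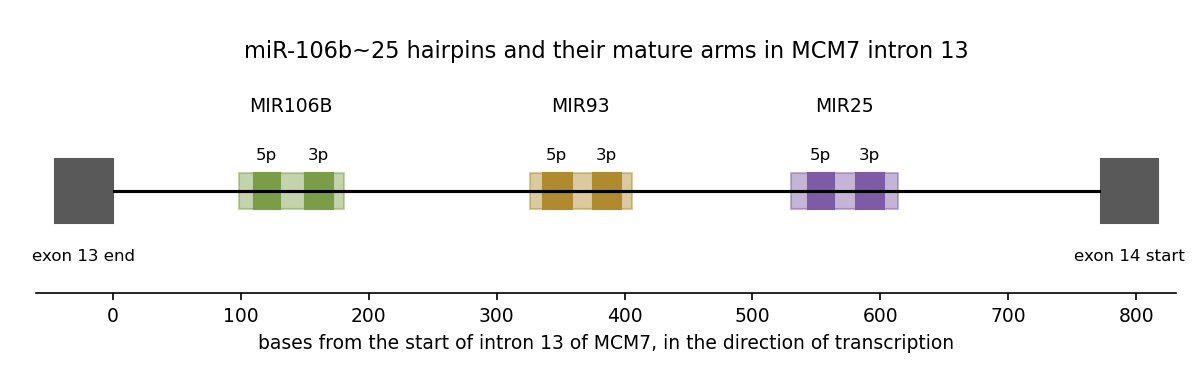
Map of intron 13 of MCM7, drawn to scale along the direction of transcription, with the x axis in bases from the start of the intron. Pale boxes are the hairpins, dark boxes their mature arms, and grey boxes the edges of the exons on either side; all 3 hairpins lie within the 771 bases of the intron.

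The hairpins below show how the arms sit in the precursor, with both arms in capitals. RefSeq's table has entries for MIR106B and MIR25.
MIR106B: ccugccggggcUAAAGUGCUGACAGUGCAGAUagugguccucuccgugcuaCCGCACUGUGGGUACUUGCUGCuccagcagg
MIR25: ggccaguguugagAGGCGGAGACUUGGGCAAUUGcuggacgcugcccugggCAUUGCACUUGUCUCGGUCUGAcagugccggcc
The 5p arm takes bases 12 to 32 of the 82-base MIR106B hairpin and the 3p arm bases 52 to 73. In the 84-base MIR25 hairpin the arms are at bases 14 to 34 and 52 to 73.

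The libraries differed in depth and in likeness. Reads were counted in whole steps of the normalized value, taking 1 step as 1 read, over the 413 listed miRNAs alone. Vehicle libraries held 710878 to 4778066 such reads and WA libraries 156442 to 2232934. Of the 413 miRNAs, 2 to 21 were listed at 0 per vehicle library and 52 to 166 per WA library. WA replicate 3 stood apart from its group, with Pearson correlations across the 413 miRNAs of 0.630 and 0.641 with WA replicates 1 and 2 and of 0.772 to 0.797 with the vehicle libraries. Vehicle replicate 1 correlated at 0.785 and 0.792 with the other vehicle libraries, which correlated at 0.987 with each other. Because WA replicate 3 stood apart, the members' fold changes were also fitted without that library. Because these are bulk libraries, fewer cells carrying a miRNA and less of it per cell cannot be told apart. The normalized values are also relative to the other listed miRNAs.

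All 6 members were listed above 0 in every library and passed the filter, which asked for a value of 10 or more in 3 or more libraries. Together they held 1.64%, 1.36% and 1.65% of the reads of the listed miRNAs in the 3 vehicle replicates in order. With WA they held 1.64%, 1.75% and 3.30%. The 95% Wilson intervals were widest in WA replicate 1, from 1.58% to 1.70%, and cover counting error only. The share was thus alike in 5 libraries and higher in WA replicate 3. The members' summed normalized value was 15782, 18612 and 21192 with vehicle and 14864, 17663 and 55384 with WA. On the log2 scale the sum differed by 0.41 between the groups, within the spread of the replicates (SD 0.21 in the vehicle and 1.03 in the WA group, n = 3 each, exact permutation test, two-sided p = 0.9). Without WA replicate 3 the difference was -0.18.

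miR-25-3p, the miRNA of the cluster with the seed of miR-92a, was the most abundant member in 4 of 6 libraries. Its normalized value was 4741, 9972 and 12531 in vehicle replicates 1 to 3 and 6325, 7424 and 24267 in WA replicates 1 to 3. WA replicates 1 and 2 lay between the vehicle values, and only WA replicate 3 lay above them. The mean was 9081 ± 3971 (SD, n = 3) in vehicle-treated and 12672 ± 10060 (SD, n = 3) in WA-treated cells. By limma on log2(normalized value + 1) the log2 fold change was 0.31 (standard error 0.79, 95% interval -1.53 to 2.15, adjusted p = 0.793). The sign turned without WA replicate 3 (-0.29) and without vehicle replicate 1 (-0.098). Among the 413 miRNAs of a library it ranked from 18 to 31.

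miR-93-5p, which shares its seed with miR-106b-5p, was at 8037, 3021 and 3200 with vehicle, against 5676, 6802 and 27137 with WA. Vehicle replicate 1 exceeded WA replicates 1 and 2, so the groups overlap. miR-93-5p was the most abundant member in the other 2 libraries, vehicle replicate 1 and WA replicate 3. Its log2 fold change of 1.25 (standard error 0.83, 95% interval -0.70 to 3.20) had a limma adjusted p of 0.378, and without WA replicate 3 it was 0.54 (adjusted p = 0.503). It had the highest log2 fold change of the members, above that of 80.7% of the 327 tested miRNAs.

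miR-106b-5p, which gives the cluster its name, was at 1027, 758 and 554 with vehicle, against 1200, 1227 and 42.8 with WA. WA replicates 1 and 2 lay above every vehicle library and WA replicate 3 below every one. In WA replicate 3 it was counted in 57 reads (95% Poisson interval 43.2 to 73.9), against 687 reads in the shallower WA replicate 2. Its rank among the 413 miRNAs ran from 62 to 104 in the other 5 libraries and was 213 in WA replicate 3. The log2 fold change was -0.91 (standard error 1.34, limma adjusted p = 0.643), and it was 0.68 without WA replicate 3 (adjusted p = 0.275), so that 1 library set its direction.

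miR-106b-3p, from the other arm of that hairpin, was at 1509, 4513 and 4513 with vehicle, against 1473, 2067 and 2814 with WA. It was lowest in WA replicate 1 and nearly as low in vehicle replicate 1, so the groups overlap, although all WA libraries lay below vehicle replicates 2 and 3. The log2 fold change was -0.61 (standard error 0.70, limma adjusted p = 0.590). It was also the steadiest member within the WA group, where the highest value was 1.91 times the lowest, against 28.7 times for miR-106b-5p.

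The less abundant arms of the other hairpins were miR-93-3p and miR-25-5p. miR-93-3p was at 168, 105 and 161 with vehicle, against 139, 71.5 and 576 with WA, with a log2 fold change of 0.34 (standard error 1.05, limma adjusted p = 0.833) that was -0.50 without WA replicate 3. WA replicate 2 was its lowest library and WA replicate 3 its highest, with the vehicle libraries between them. miR-25-5p was at 301, 242 and 234 with vehicle, against 52.2, 71.5 and 545 with WA. It had the narrowest spread of the members in vehicle-treated cells, where the highest value was 1.29 times the lowest. WA replicates 1 and 2 lay below every vehicle library and WA replicate 3 above every one. In WA replicate 1 it rested on 9 reads (95% Poisson interval 4.12 to 17.1). Its log2 fold change was -1.01 (standard error 1.10, limma adjusted p = 0.568). Without WA replicate 3 it was -2.06 with a limma adjusted p of 0.0259, in a fit that called 130 of 311 tested miRNAs, or 41.8%. It was the only member called in that fit.

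**Figure D2:**
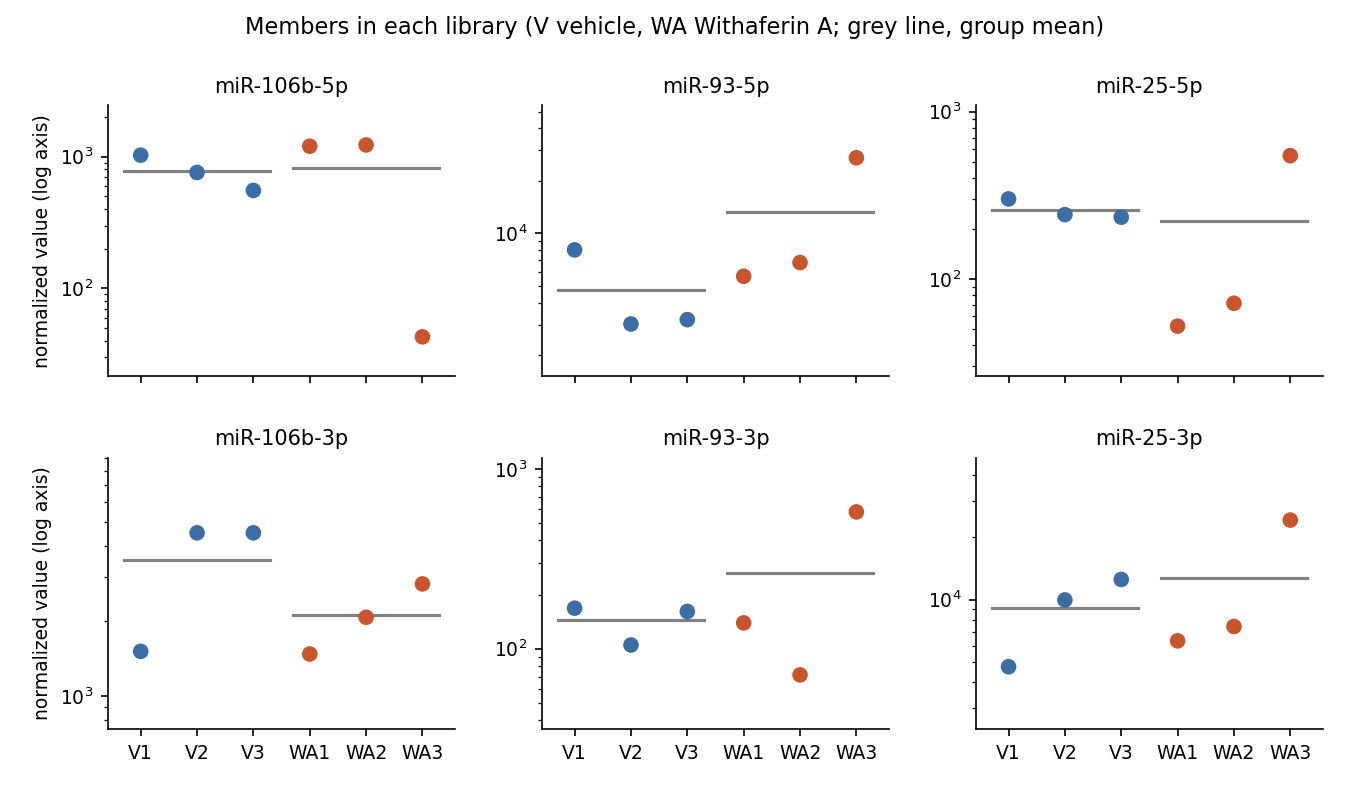
Normalized value of each member in each library, on log axes, with vehicle libraries in blue, WA libraries in orange and the mean of each group of 3 as a grey line. In WA replicate 3 miR-106b-5p was at 42.8, below all other libraries, while miR-93-5p, miR-93-3p, miR-25-5p and miR-25-3p were at their highest.

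In the comparison of WA-treated with vehicle-treated cells, none of the 6 members passed a limma adjusted p under 0.05, and none had an unadjusted p under 0.05. Over all 327 tested miRNAs, 5.5% passed the adjusted threshold and 26.3% the unadjusted one. For none of the 6 did the groups lie apart, which they did for 27.2% of the tested miRNAs. The median log2 fold change was -0.15 over the members and -0.91 over all tested miRNAs. Over the 173 miRNAs with a value of 10 or more in every library, which include all 6 members, the median was -0.10. The 95% intervals of all 6 members included 0, and the widest ran from -4.03 to 2.20 for miR-106b-5p.

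**Figure D3:**
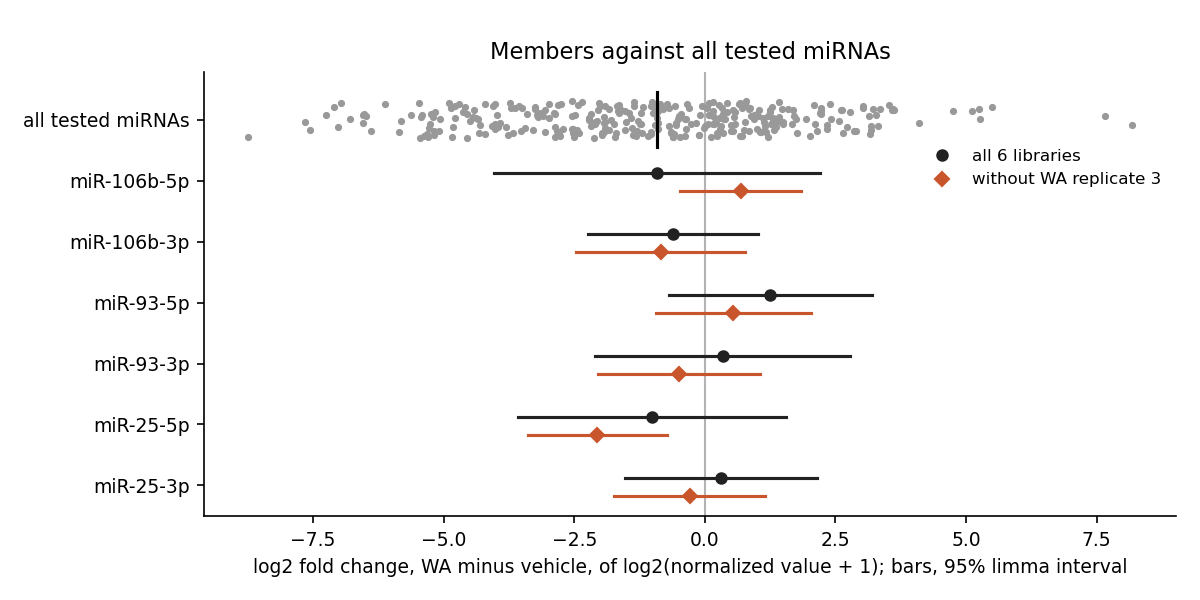
Log2 fold change of each member, WA minus vehicle, with its 95% limma interval, from all 6 libraries (black) and without WA replicate 3 (orange). The grey points are the 327 tested miRNAs with their median of -0.91 as a black line. The median was -0.10 over the 173 miRNAs at 10 or more in every library, as all members were. All black intervals include 0, and the orange interval of miR-25-5p alone does not.

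The hairpins of the cluster come from 1 transcript, and their relative yield does not depend on the scaling between libraries. The miR-93 hairpin, both arms summed, gave 52.0% of the members' reads in vehicle replicate 1 but 16.8% and 15.9% in the other two. With WA it gave 39.1%, 38.9% and 50.0%. WA replicates 1 and 2 were thus nearly equal, and the vehicle libraries lay on both sides of them. The miR-25 hairpin gave 31.9%, 54.9% and 60.2% with vehicle and 42.9%, 42.4% and 44.8% with WA. The miR-106b hairpin gave 16.1%, 28.3% and 23.9% with vehicle and 18.0%, 18.6% and 5.16% with WA, the lowest in WA replicate 3. The 95% Wilson intervals of these shares spanned at most 3.83 percentage points, so most of the gaps exceed counting error.

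The log2 ratio of miR-93 to miR-106b was 0.12 ± 1.37 (SD, n = 3) in vehicle-treated and 1.82 ± 1.26 (SD, n = 3) in WA-treated cells (exact permutation test, two-sided p = 0.3, 0.4 after adjustment over 3 pairs of hairpins). The ratio of miR-25 to miR-106b differed by 0.76 between the groups (exact permutation p = 0.3) and that of miR-93 to miR-25 by 0.94 (exact permutation p = 0.4). Without WA replicate 3 the difference was 0.97 for miR-93 to miR-106b, 0.13 for miR-25 to miR-106b and 0.85 for miR-93 to miR-25. The last was 1.78 without vehicle replicate 1, 0.58 without vehicle replicate 2 and 0.47 without vehicle replicate 3. The values of the groups overlapped in all 3 pairs. With 3 libraries against 3, the smallest p these tests can give is 0.1, so none could pass 0.05.

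The balance of the arms differed in kind between the hairpins. In the miR-93 hairpin the 5p arm exceeded the 3p arm in 6 of 6 libraries, by 19.8- to 47.6-fold in vehicle-treated and by 40.5- to 93.9-fold in WA-treated cells. In the miR-25 hairpin the 3p arm exceeded the 5p arm in 6 of 6 libraries, by 15.7- to 53.4-fold in vehicle-treated and by 44.4- to 119-fold in WA-treated cells. The miR-106b hairpin was the least one-sided in 5 libraries. Its 3p arm exceeded the 5p arm by 1.47-, 5.95- and 8.14-fold in vehicle replicates 1 to 3, by 1.23- and 1.68-fold in WA replicates 1 and 2, and by 64.2-fold in WA replicate 3. In no library was miR-106b-5p the larger product of its own hairpin.

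Between the groups, the log2 ratio of the 5p to the 3p arm differed by -0.30 for miR-106b, by 0.91 for miR-93 and by -1.33 for miR-25. The exact permutation p was 0.9, 0.3 and 0.2, and 0.9, 0.45 and 0.45 after adjustment over the 3 hairpins. The values of the groups overlapped for each hairpin. For miR-106b the difference had the opposite sign without WA replicate 3 (1.53) and without vehicle replicate 1 (0.45).

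**Figure D4:**
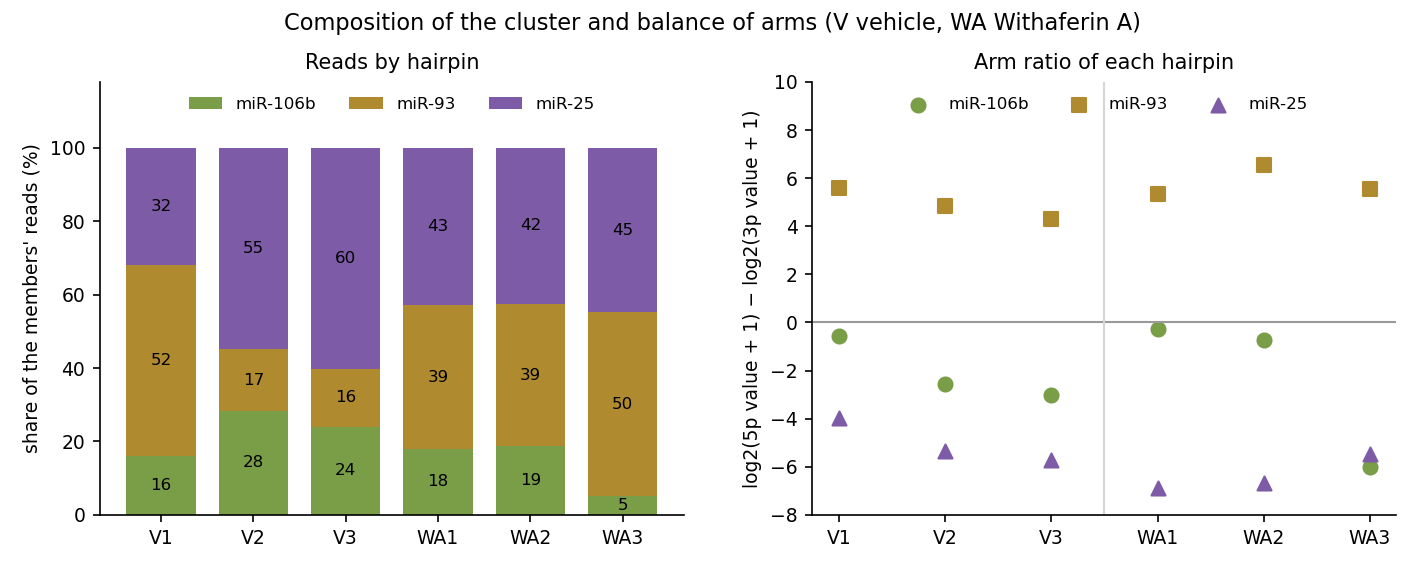
Left, share of the members' reads from each hairpin in percent, per library. Right, log2 of the 5p over the 3p value of each hairpin per library, where points above 0 mean more 5p; miR-93 lies above 0 and miR-25 and miR-106b below it in all 6 libraries, with miR-106b at -6.01 in WA replicate 3.

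The members were next set beside the other miRNAs that share their seeds. miR-17-5p, a member of the paralogous miR-17~92 cluster, was at 745, 2372 and 2107 with vehicle, against 667, 518 and 104 with WA. Its groups did not overlap, and the log2 fold change was -2.22 (standard error 0.94, limma adjusted p = 0.182), or -1.40 without WA replicate 3 (limma adjusted p = 0.132). miR-20a-5p of the same cluster was at 1275, 2303 and 2523 with vehicle, against 713, 983 and 633 with WA, with a log2 fold change of -1.35 and a limma adjusted p of 0.215. For both, each WA library lay below the lowest vehicle library, and neither passed the correction. miR-106a-5p, from the paralogous cluster on the X chromosome, was scarce. It was counted in 21, 20 and 14 reads in the vehicle libraries and in 2, 0 and 121 reads in the WA libraries, where the 0 allows a normalized value of up to 5.36.

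RefSeq lists 8 miRNAs with the AAAGUGC seed, of which 5 are in the values used here. Of the reads of these 5, miR-93-5p and miR-106b-5p together held 81.6%, 44.7% and 44.7% in the 3 vehicle replicates in order. With WA they held 83.2%, 84.2% and 97.0%. The WA libraries thus lay above the vehicle libraries, but the gap between vehicle replicate 1 (95% Wilson interval 80.7% to 82.4%) and WA replicate 1 (81.1% to 85.0%) is within counting error. The summed normalized value of these 5 miRNAs was 11112, 8460 and 8388 with vehicle and 8267, 9530 and 28008 with WA. WA replicate 1 lay just below the vehicle range, WA replicate 2 within it and WA replicate 3 above it.

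Among the miRNAs with the AUUGCAC seed, miR-92a-3p was the most abundant in 6 of 6 libraries, at 45770, 19528 and 27685 with vehicle, against 11484, 11515 and 47895 with WA (log2 fold change -0.66, limma adjusted p = 0.617). Without WA replicate 3 the log2 fold change of miR-92a-3p was -1.34 (limma adjusted p = 0.108), and with WA replicate 1 or 2 left out instead it was -0.31. miR-25-3p held 7.27%, 30.6% and 28.5% of the reads of the 4 listed miRNAs with this seed in the 3 vehicle replicates in order. With WA it held 35.4%, 39.0% and 32.3%, each above the highest vehicle library. miR-92b-3p was at 14694, 2384 and 2937 with vehicle, against 52.2, 80.4 and 2853 with WA (log2 fold change -4.34, limma adjusted p = 0.143). Without WA replicate 3 the limma adjusted p of miR-92b-3p was 0.00353, in a fit that called 41.8% of 311 tested miRNAs. Its values in WA replicates 1 and 2 rested on 9 and 45 reads. miR-32-5p was at 37.9, 678 and 840 with vehicle, against 11.6, 17.9 and 19.5 with WA (log2 fold change -4.05, limma adjusted p = 0.141). These WA values rested on 2, 10 and 26 reads, and that of vehicle replicate 1 on 28 reads. Of the 6 seed relatives outside the cluster, 0 passed a limma adjusted p under 0.05, 3 had an unadjusted p under 0.05, and 3 had groups that did not overlap, all lower in WA-treated cells. The corresponding shares of the 327 tested miRNAs were 5.5%, 26.3% and 27.2%, and 64 of the 89 with groups that did not overlap were lower with WA. The median log2 fold change was -1.79 over these 6 and -0.91 over all tested miRNAs. The share of a seed group held by the members was not tested.

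The miR-17~92 cluster on chromosome 13 is a paralog of the miR-106b~25 cluster and holds both of its main seeds. Of the 12 arms sought by name, 9 were listed, and all 9 were tested. None of them passed a limma adjusted p under 0.05, 2 had an unadjusted p under 0.05, and 3 had groups that did not overlap, with the lower values in WA-treated cells. These counts are near the shares of all tested miRNAs, which were 5.5%, 26.3% and 27.2%. The median log2 fold change of these 9 arms was -1.35, against -0.91 over all tested miRNAs. The members' sum was 0.323, 0.729 and 0.631 times the miR-17~92 sum in vehicle replicates 1 to 3, and 1.11, 1.28 and 1.12 times in WA replicates 1 to 3. On the log2 scale this ratio was -0.92 ± 0.63 (SD, n = 3) in vehicle-treated and 0.23 ± 0.12 (SD, n = 3) in WA-treated cells. The difference of 1.14 had an exact two-sided permutation p of 0.1, the smallest that 3 libraries against 3 allow. This p was not adjusted over the 8 sums and ratios tested. Of these 8, this ratio was the only one whose groups lay apart. Leaving out any 1 library gave a difference of 0.79 to 1.37. Between 76.4% and 97.2% of the miR-17~92 reads were miR-92a-3p, a sequence that is also encoded on the X chromosome, so the ratio mostly sets the members against that miRNA.

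**Figure D5:**
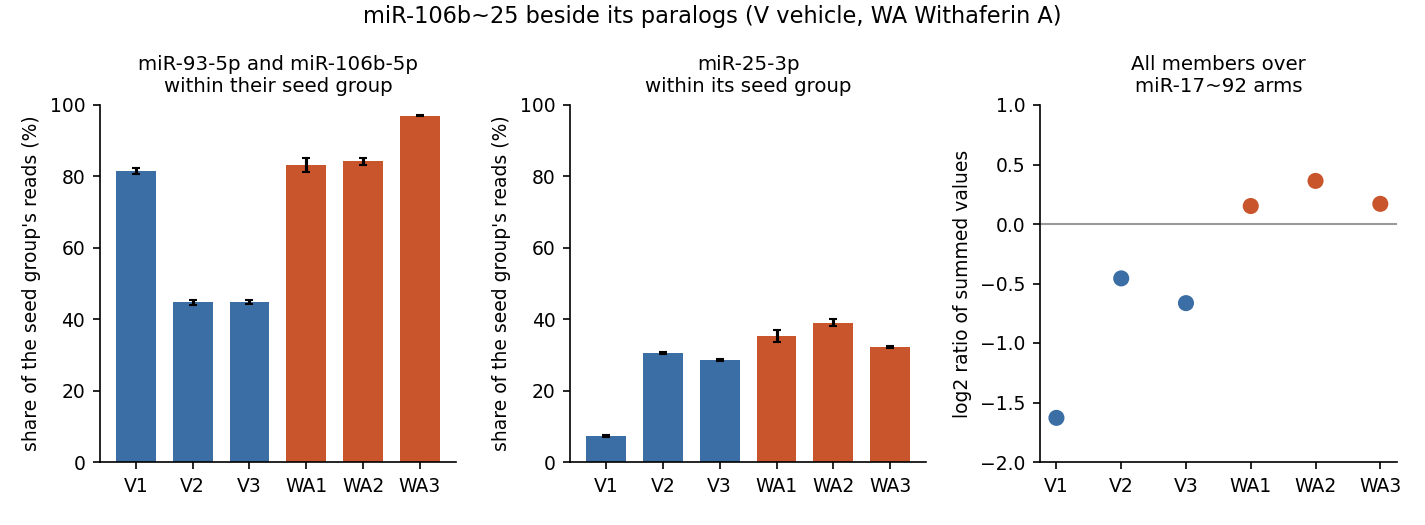
Left and middle, share in percent of the reads of the listed miRNAs with a given seed that came from the members, per library, with 95% Wilson intervals as error bars. Right, log2 ratio of the members' sum to the miR-17~92 sum, which was between -1.63 and -0.46 in the vehicle libraries and between 0.15 and 0.36 in the WA libraries.

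The likeness of patterns over the 6 libraries was measured as the root mean square difference of log2(normalized value + 1) after each miRNA was centred on its own mean, where 0 is the same pattern. Between members it ran from 0.62 for miR-106b-3p and miR-25-3p to 2.65 for miR-106b-5p and miR-25-5p. The 3 nearest of the 327 tested miRNAs were outside the cluster for each member, which says little, since a member has only 5 others to be near. miR-93-5p was nearest to miR-342-3p at 0.18, let-7a-5p at 0.19 and miR-29a-3p at 0.21. miR-106b-3p was nearest to miR-26a-5p at 0.31, miR-301a-5p at 0.31 and miR-128-3p at 0.37, and miR-25-3p to miR-128-3p at 0.37, miR-425-5p at 0.37 and miR-222-5p at 0.43. miR-93-3p was nearest to miR-454-5p at 0.28, miR-17-3p at 0.39 and miR-222-5p at 0.47. miR-25-5p was nearest to miR-183-5p at 0.31, miR-138-5p at 0.39 and miR-92a-3p at 0.50. The pattern of miR-106b-5p had the most distant neighbours, miR-151b at 0.73, miR-940 at 0.76 and miR-1343-3p at 0.82. These distances rest on 6 libraries that share their scaling and are a description with no test.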

How the data were processed

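Groups of small RNA libraries (n = 3 each) were taken from the sample labels. Per the labels and the study's methods, the authors trimmed reads with Trim Galore, aligned them with Bowtie to GRCh38.p10 and discarded those from other kinds of noncoding RNA. Known mature miRNAs were identified against miRBase with BLAST, by homology and ungapped alignment, and counted. The authors divided each read count by a DESeq2 size factor per library, and this signal was deposited. Columns deposited from the authors' own comparison hold a fold ratio, the same on the log2 scale, and p-values, and were not used.

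Within a library, every value was a whole multiple of 1 step (tolerance 0.02 steps), and read numbers assume that 1 step is 1 read. No count model was fitted, since it is an assumption that 1 step is 1 read. The Poisson and Wilson intervals rest on the same assumption. The 327 miRNAs that reached 10 in 3 or more libraries entered a two-sided, unpaired limma fit (version 3.58.1, R 4.3.3) with the variance trend on log2(value + 1), and p-values were adjusted after Benjamini and Hochberg. This scale understates changes of low miRNAs. P-values measure only the spread between these samples. Sums and ratios were compared by exact permutation tests. Analyses used Python 3.11.15, numpy 2.4.6, scipy 1.17.1 and pandas 2.3.3. The fit was checked on simulated data, where, at a log2 change of 3 up or down, 56 of 56 changed and 0 of 298 unchanged miRNAs of 354 were called. The simulated libraries all had the same spread, and none stood apart as WA replicate 3 did. The check therefore does not show which changes the fit could find in the real data. There, a log2 fold change of -4.34 for miR-92b-3p was not called (limma adjusted p = 0.143).

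The members, the paralog lists and the tests were chosen with earlier results of these data known. The miRNAs named are the members, the miR-17~92 and miR-106a~363 arms, those sharing a member's seed, and the 3 nearest in pattern to each member. Sequences are RefSeq's for GRCh38.p14, found for 368 of the 413 miRNAs. The replicate numbers were treated as names only.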

Additional observations from a re-analysis of the deposited data

How the results depend on the processing

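WA replicate 1 was the shallowest library, with 156442 reads of the listed miRNAs, and a 0 there allows a normalized value of up to 17.4. No member was at 0 in any library. The members' log2 fold changes kept their sign and stayed above a limma adjusted p of 0.05 with total-count, upper-quartile and trimmed-mean scaling, thinning to the smallest library, pseudocounts of 0.1 and 10, no filter, a stricter filter asking for 10 in each library, no variance trend and the replicate block. The median of all tested miRNAs moved by 0.29 with upper-quartile scaling, 0.30 with a pseudocount of 10, -0.40 with no filter and 0.81 with the stricter filter. The filters also changed which miRNAs entered the median. For none of the changes below was the cause tested. The number of miRNAs called, 18, was 0 with upper-quartile scaling (78 at an unadjusted p under 0.05), 7 with a pseudocount of 0.1, 7 with a pseudocount of 10, 53 with no filter and 0 with the stricter filter, where 173 were tested (29 unadjusted).

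With each library left out in turn it ran from 0 to 130, with 130 only when WA replicate 3 was the one left out and 0 for any of the other 5 (25 to 69 unadjusted). The log2 fold change then ran from -1.72 to 0.68 for miR-106b-5p, from -0.50 to 1.00 for miR-93-3p, from -2.06 to -0.38 for miR-25-5p and from -0.29 to 0.68 for miR-25-3p. It ran from 0.54 to 1.71 for miR-93-5p and from -1.14 to -0.35 for miR-106b-3p. The sign of miR-25-3p turned without vehicle replicate 1 (-0.098) and without WA replicate 3 (-0.29). The difference in the members' sum ran from -0.18 to 0.77 and that in the miR-106b arm ratio from -1.33 to 1.53. Among the relatives, miR-17-3p ran from -0.20 to 1.32 and miR-106a-5p from -0.42 to 1.75 in the 3 of 6 fits where it passed the filter. The differences in hairpin ratios ran from 0.97 to 2.49 for miR-93 to miR-106b, from 0.13 to 1.09 for miR-25 to miR-106b and from 0.47 to 1.78 for miR-93 to miR-25. miR-106a-5p, at 0.05, was -0.0088 with total-count scaling and -0.92 with a pseudocount of 0.1.

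With the replicate block 24 miRNAs were called, of which 15 were among the 18 and 0 were members. The main fit used no pairing, since the study's methods name none. Deviations of same-numbered libraries correlated at -0.09 to 0.06, and 1 of 6 libraries correlated best with its own number. So few libraries cannot show that pairing is absent. With a pseudocount of 10, the nearest miRNAs of miR-106b-3p and miR-93-5p were the same 3, and 1 or 2 of 3 were shared for the other members. Tests of read counts by edgeR and DESeq2 had been planned and were not run.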
